A study of Drosophila melanogaster with 48 samples.

Results

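Neuropeptides and peptide hormones are short signalling peptides cut from longer precursor proteins. The gene set described here is a list of 42 Drosophila genes, 39 for peptide precursors or hormone subunits and 3 for enzymes that process them. It was put together by gene name, with earlier results of these data known. Of the 42 genes, 41 had a transcript in the deposited files, out of 17257 genes in all, and Gpa2 was not analysed here. For each gene, the level is the TPM (length-normalized transcript abundance scaled to the same total in each library) summed over its transcripts in a library.

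RNA was sequenced from formaldehyde-fixed embryo cells separated by fluorescence-activated cell sorting into marker-positive (pos) and marker-negative (neg) cells, with 48 libraries in 24 groups of 2. Reporters under column-specific enhancers marked the intermediate (Ind) and ventral (Vnd) columns of the neurogenic ectoderm. Antibodies against the endogenous proteins Prospero (Pros), Elav and Repo marked neuroblasts with ganglion mother cells, neurons and glia. Times are hours after egg laying: 4-6h and 6-8h for Ind, Vnd and Pros, and 6-8h, 8-10h and 18-22h for Elav and Repo. All flies carried yellow and white mutations. The lines were ind_1.4::dsRed for 4-6h Ind and ind_1.4::GFP for 6-8h Ind and 6-8h Repo, with vnd_743::dsRed for Vnd at both times. Pros cells at both times, 8-10h Repo cells and all 18-22h cells came from vnd-lexA/VC:FNLDD. The 8-10h Elav cells came from yw, and the 6-8h Elav cells from ind_1.4::GFP in replicate 1 and from yw in replicate 2. Time and fly line therefore cannot be told apart for Elav cells between 8-10h and 18-22h and for Repo cells between 6-8h and 8-10h. Both populations shared a line in full at 18-22h. Each positive group had the negative cells of its own sort as reference. The study's methods call the 2 libraries of a group biological duplicates. Neither they nor the labels say more about the embryo collections, and p-values measure the spread between these libraries.

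In insects, a precursor enters the secretory pathway and is cut at basic residues by a prohormone convertase. A carboxypeptidase trims the exposed residues, and an amidating enzyme modifies the C-terminus of many peptides. The products are stored in dense core vesicles, and most of them act through G protein-coupled receptors. Many peptides are made by a few neurons each, while insulin-like peptides and others also come from non-neuronal tissues such as fat body, glia and endocrine cells. In whole sorted populations, fewer cells making a peptide and less RNA per cell cannot be told apart.

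Libraries held 18120862 to 113452420 estimated reads. They differed widely in the level of 177 chemosensory receptor genes, which the embryo scarcely uses: the median receptor level ranged from 0.0203 to 17.7 TPM, and the 95th percentile from 2.60 to 29.5 TPM. The 95th percentile of each library served here as its background. The 2 libraries of 18-22h Elav-neg cells stood apart from each other, with receptor medians of 0.155 and 13.7 TPM and normalization factors of 0.540 and 1.76. For this reason ratios of TPM and fitted fold changes can differ in that comparison. The sorted cells carried their markers: all 9 neuron markers tested were called higher in Elav-pos cells at each of the 3 times, and 9, 8 and 10 of 11 glia markers in Repo-pos cells at 6-8h, 8-10h and 18-22h. In Repo-pos cells at 6-8h, 8 of the 9 neuron markers were called higher as well. In Elav-pos cells 5, 3 and 0 of the 11 glia markers were called higher at 6-8h, 8-10h and 18-22h, and 1, 2 and 3 lower. Of 6 markers of neuroblasts and ganglion mother cells, 2, 3 and 3 were called higher there, and 1, 0 and 0 lower. The Elav-pos cells were therefore not free of RNA of these other types.

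The peptide genes were not all highest in the same cells, as the heat map of levels shows. Of the 41 genes, 19 had their highest mean level in 18-22h Elav-pos cells, among them amon, svr, Nplp1, SIFa, Proc and Ms. Counting all 3 times, 21 genes were highest in an Elav-pos group and 20 in another group. The genes highest elsewhere included Nplp2, Ilp6, NPF and CCHa2 in 18-22h Elav-neg cells, Ilp4 in 6-8h Pros-neg cells and ITP in 18-22h Repo-pos cells. Of these, only ITP did not overlap the next group. In 17 of the 41 genes both libraries of the highest group were above both of the next group, against 23.5% of all genes tested. Of the 20 genes, 8 were highest in 6-8h Vnd-pos cells, at means of 10.7 to 25.1 TPM, in libraries whose background was 22.4 and 17.8 TPM. On a scale of counts per library total (CPM), 4 genes were highest there. In TPM and CPM the highest group was the same for 30 of the 41 genes, and Ilp4 was highest in 6-8h Ind-neg cells in CPM.

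**Figure D1:**
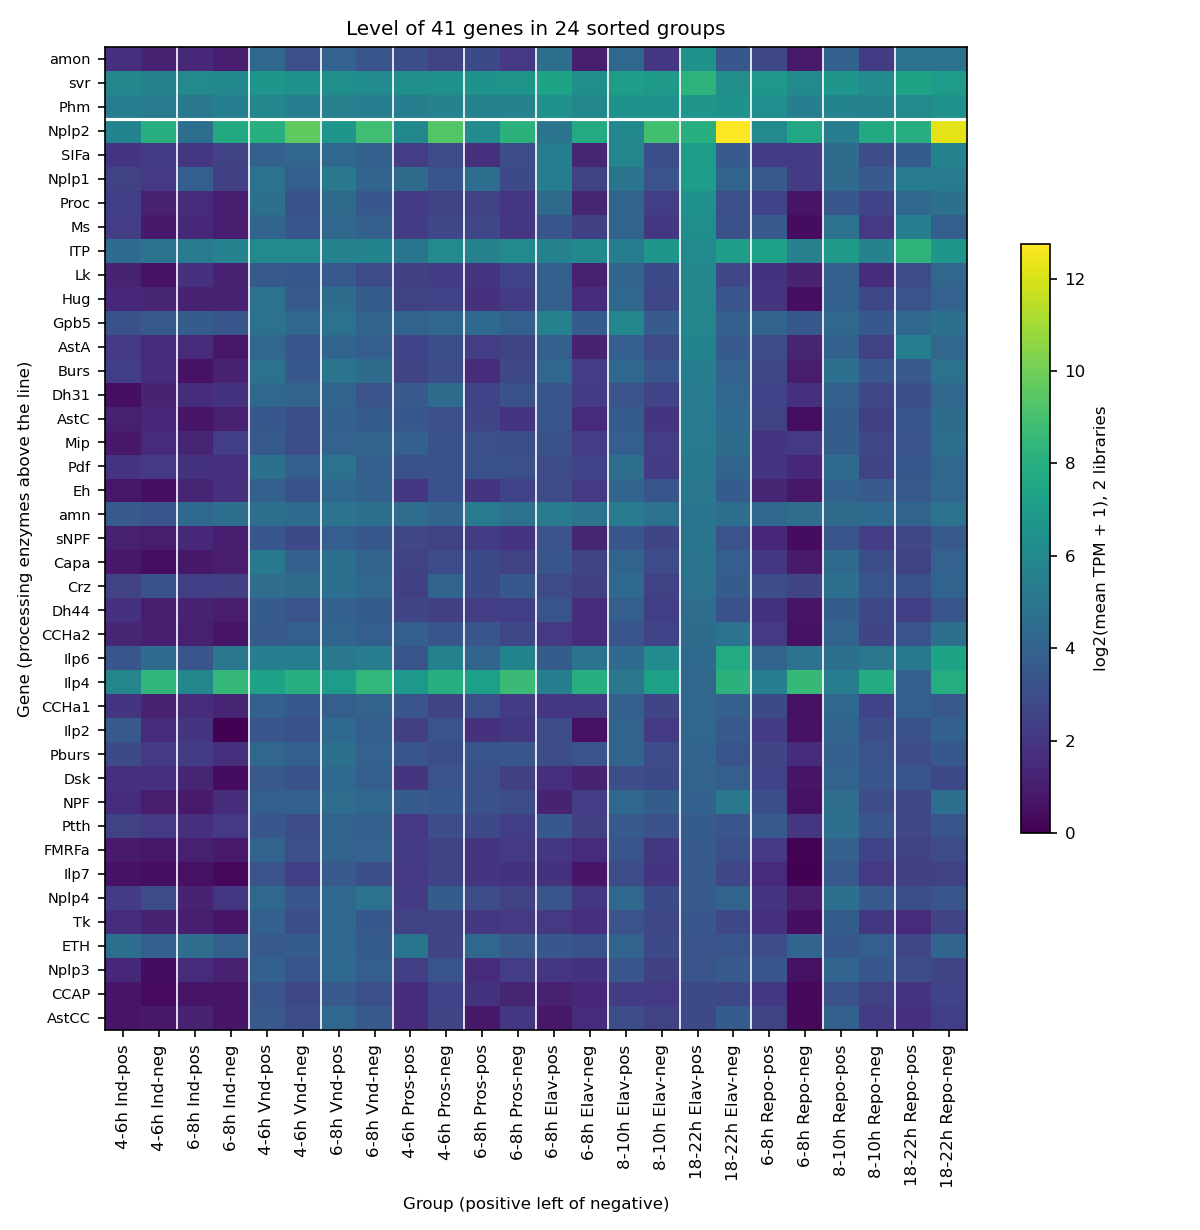
Heat map of log2(mean TPM + 1) over 2 libraries for 41 genes (rows, the 3 processing enzymes on top) in 24 sorted groups (columns, positive left of negative). The column of 18-22h Elav-pos cells is the brightest for 19 genes, while Nplp2, Ilp4 and Ilp6 are brighter in negative cells.

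Over the 12 comparisons of positive with negative cells, 13 of the 41 genes (31.7%) passed the test at least once, against 37% of all genes (by edgeR, at an adjusted p under 0.05 over 17109 genes and with a log2 fold change beyond 1 in either direction). There were 22 calls of higher level in 10 genes, against 18.7% of all genes called higher at least once, and 27 calls of lower level in 5 genes, against 22.5%. At 18-22h, 6 of 41 genes (14.6%) were called higher in Elav-pos than in Elav-neg cells, against 9.09% of all genes tested, and 4 (9.76%) were called lower, against 11.8%. At 6-8h, 6 genes were called higher (9.34% of all genes) and 3 lower (7.67% of all genes). At 8-10h, 3 were called higher (5.71% of all genes) and 4 lower (7.80% of all genes). The median log2 fold change of the 41 genes was 0.75, 0.66 and 0.89 at the 3 times, against -0.02, 0.14 and -0.12 for all genes. These calls borrowed the spread of all 48 libraries: fitted on the 4 libraries of a comparison alone, edgeR called 2, 0 and 0 of the 41 genes higher at 6-8h, 8-10h and 18-22h, and 0 lower at 18-22h.

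Among the processing enzymes, amon followed the neurons. The gene (FBgn0023179, 3R:26697697-26714159, minus strand, dm6) encodes the prohormone convertase PC2. It had 15.5 and 31.0 TPM in 6-8h Elav-pos cells, against 1.95 and 0.212 TPM in Elav-neg cells. At 8-10h, it had 15.6 and 20.4 TPM in Elav-pos cells, against 0.508 and 5.78 TPM in Elav-neg cells. At 18-22h, the levels were 99.98 and 87.0 TPM in Elav-pos cells, against 4.78 and 14.9 TPM in Elav-neg cells. Both Elav-pos libraries lay above both Elav-neg libraries at each time. The log2 fold changes were 4.38 ± 0.76, 2.56 ± 0.70 and 3.16 ± 0.71 (SE), with adjusted p-values of 6.64e-05, 0.0106 and 0.00128 by edgeR. The call held without each library in turn at 6-8h and 18-22h. At 8-10h it was lost without Elav-neg replicate 1 (1.83) and without Elav-pos replicate 1 (2.06).

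The other enzymes were present in every group. Phm (FBgn0283509, 2R:23985175-23988455), the monooxygenase of peptide amidation, had 109 and 93.6 TPM in 18-22h Elav-pos cells, against 113 and 70.4 TPM in Elav-neg cells. The groups overlapped, and the log2 fold change of -0.56 ± 0.47 was not called (adjusted p = 0.520, edgeR). Its sign turned to 0.15 with the receptor level as a covariate and to 1.0 without Elav-neg replicate 1. Without Elav-neg replicate 2, a log2 fold change of -1.28 was called. svr (FBgn0004648, X:496446-509072) encodes the carboxypeptidase D that trims basic residues. It had 310 and 296 TPM in 18-22h Elav-pos cells, against 89.7 and 67.9 TPM in Elav-neg cells. Both neuronal libraries were the higher ones, but the log2 fold change of 1.12 ± 0.45 missed the threshold (adjusted p = 0.0786, edgeR). This result depended on the processing. In 18-22h Elav-pos cells svr was called higher by DESeq2, on length-scaled counts, and with median-of-ratios factors, the receptor covariate or a replicate block. Its log2 fold change ran from 1.12 to 1.73 over the alternatives that kept all libraries of the comparison. With 1 library left out it ran from 0.51 to 2.30, the highest without Elav-neg replicate 1. At 6-8h, svr had 116 and 224 TPM in Elav-pos cells, against 64.2 and 100.3 TPM in Elav-neg cells. At 8-10h, it had 143 and 139 TPM in Elav-pos cells, against 131 and 102 TPM in Elav-neg cells. The log2 fold changes at those times, 0.40 ± 0.45 and -0.40 ± 0.45, were not called, nor were they under the alternatives just named.

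The transcripts of svr differed in their distribution (the transcript values were looked at after the gene values were seen, and they were not tested). The gene has 4 transcripts with a coding sequence of 1299 to 1305 bases and 7 with one of 3876 to 4317 bases. The short forms summed to 259 and 250 TPM in 18-22h Elav-pos cells, against 65.3 and 41.1 TPM in Elav-neg cells. In Elav-pos cells this sum was almost wholly svr-RL, which had 42.0 and 20.6 TPM in Elav-neg cells. The other short forms were almost absent from 18-22h Elav-pos cells and thus went the other way. In Elav-neg cells svr-RE had 19.6 and 7.86 TPM, svr-RJ 3.75 and 6.56 TPM, and svr-RF 4.38e-07 and 6.09 TPM. The long forms summed to 50.4 and 46.2 TPM in Elav-pos cells, against 24.4 and 26.8 TPM in Elav-neg cells. The short forms thus made up 83.7% and 84.4% of svr TPM in 18-22h Elav-pos cells, against 72.8% and 60.6% in Elav-neg cells. At 6-8h their share was 74.1% and 81.1% in Elav-pos cells, against 38.2% and 43.8% in Elav-neg cells. At 8-10h it was 72.0% and 76.8% in Elav-pos cells, against 49.5% and 41.9% in Elav-neg cells. In 6-8h Repo-pos cells it was 45.0% and 44.4%, against 32.2% and 34.2% in Repo-neg cells. At 8-10h it was 41.8% and 43.1% in Repo-pos cells, against 41.4% and 41.1% in Repo-neg cells. At 18-22h the share was the lower one in glia, with 70.7% and 68.7% in Repo-pos cells, against 75.1% and 73.9% in Repo-neg cells. Salmon apportions reads that fit several transcripts by estimation, so a share of transcripts is less certain than a gene total.

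**Figure D2:**
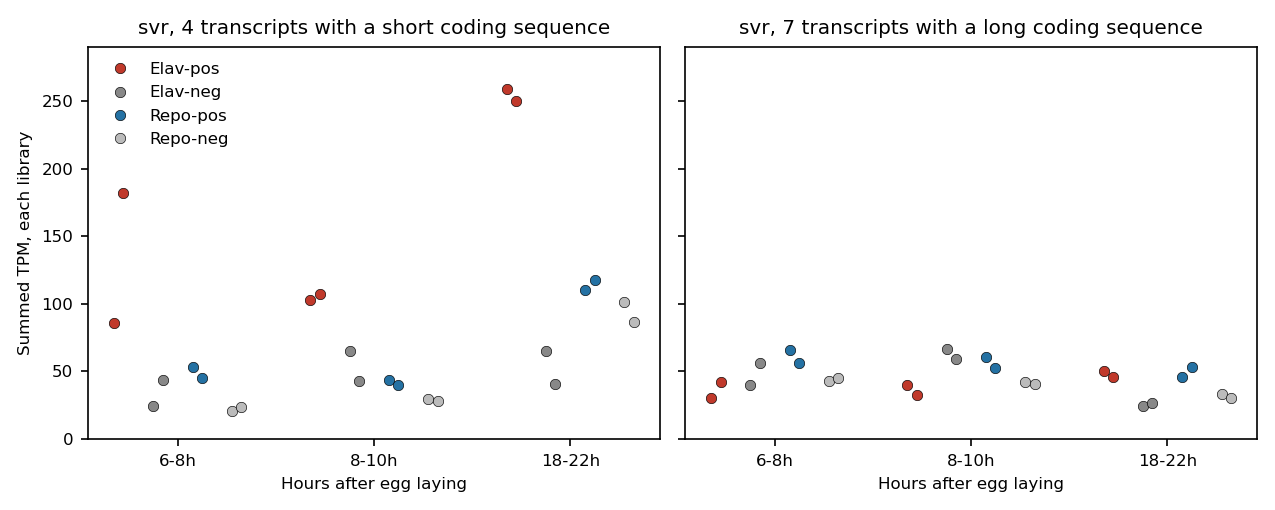
Summed TPM of the svr transcripts with a short coding sequence (left) and a long one (right) in each library, by time and sorted group. The short forms reach 259 and 250 TPM in 18-22h Elav-pos cells, while the long forms stay at 66.4 TPM or below in all groups shown.

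Precursors of neuropeptides were the other genes enriched in neurons. Nplp1 (FBgn0035092, 2R:25032377-25040377, plus strand), a precursor whose products include a ligand of a receptor guanylyl cyclase, had 33.8 and 45.4 TPM in 6-8h Elav-pos cells, against 4.67 and 4.40 TPM in Elav-neg cells. At 8-10h it had 22.9 and 34.3 TPM in Elav-pos cells, against 2.95 and 14.1 TPM in Elav-neg cells. At 18-22h it had 143 and 137 TPM in Elav-pos cells, against 2.39 and 28.7 TPM in Elav-neg cells. The groups did not overlap at any time. The log2 fold changes were 2.84 ± 0.53, 1.54 ± 0.51 and 3.35 ± 0.54, with adjusted p-values of 1.85e-04, 0.0400 and 2.61e-05 (edgeR). The call at 8-10h was lost without Elav-neg replicate 1 (1.05) and without Elav-pos replicate 1 (1.05), and the calls at the other times held without each library.

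SIFa (FBgn0053527, 2R:24577566-24578143) encodes the SIFamide precursor, which in the larva and adult is made by a few large brain neurons. It had 43.0 and 46.2 TPM in 6-8h Elav-pos cells, against 0 and 3.14 TPM in Elav-neg cells. The 8-10h levels were 41.7 and 67.8 TPM in Elav-pos cells, against 1.27 and 13.6 TPM in Elav-neg cells. At 18-22h it had 152 and 129 TPM in Elav-pos cells, against 3.96 and 19.8 TPM in Elav-neg cells. Both Elav-pos libraries were above both Elav-neg libraries at all times. SIFa was called at 6-8h (log2 fold change 4.70 ± 1.19, adjusted p = 0.00438, edgeR) and 18-22h (3.64 ± 1.12, adjusted p = 0.0178), whereas the value of 2.83 at 8-10h was not called (adjusted p = 0.0866). The call at 18-22h was lost without Elav-neg replicate 1 (3.37) and without Elav-pos replicate 2 (3.45).

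Proc (FBgn0045038, 2L:7864642-7871432), the precursor of the muscle-stimulating peptide proctolin, had 19.5 and 20.8 TPM in 6-8h Elav-pos cells, against 2.45 and 0.481 TPM in Elav-neg cells. The 8-10h levels were 9.88 and 21.9 TPM in Elav-pos cells, against 0.308 and 8.00 TPM in Elav-neg cells. At 18-22h it had 103 and 68.7 TPM in Elav-pos cells, against 1.90 and 13.2 TPM in Elav-neg cells. Both Elav-pos libraries exceeded both Elav-neg libraries at each time. Proc was called at 6-8h (log2 fold change 3.75 ± 0.93, adjusted p = 0.00358, edgeR) and 18-22h (3.59 ± 0.91, adjusted p = 0.00412). Each of these calls was lost without 1 library, Elav-neg replicate 2 at 6-8h (3.07) and Elav-neg replicate 1 at 18-22h (3.13).

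Gpb5 (FBgn0063368, 2L:23311700-23312464) encodes the beta subunit of a glycoprotein hormone, and its level in neurons was already high at the first time. It had 58.4 and 38.4 TPM in 6-8h Elav-pos cells, against 10.7 and 13.4 TPM in Elav-neg cells. The 8-10h levels were 41.9 and 75.9 TPM in Elav-pos cells, against 12.4 and 11.1 TPM in Elav-neg cells. At 18-22h it had 64.7 and 44.1 TPM in Elav-pos cells, against 6.97 and 20.7 TPM in Elav-neg cells. The groups did not overlap, and the log2 fold changes of 1.86, 1.87 and 1.77 (SE 0.44, 0.44 and 0.43) were called at all 3 times (adjusted p = 0.00207, 0.00272 and 0.00305, edgeR). The 8-10h call was lost without Elav-neg replicate 2 (1.45). The partner subunit gene Gpa2 was not analysed here.

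Ms and AstA were called in neurons at 1 time each. Ms (FBgn0011581, 3R:24341551-24343825) encodes myosuppressin, which inhibits visceral muscle. It had 112 and 47.1 TPM in 18-22h Elav-pos cells, against 1.16 and 15.0 TPM in Elav-neg cells. The log2 fold change was 3.45 ± 0.95 (adjusted p = 0.00772, edgeR), and the call was lost without Elav-neg replicate 1 (2.85). AstA (FBgn0015591, 3R:24760530-24765071), the allatostatin A precursor, had 6.99 and 20.4 TPM in 6-8h Elav-pos cells, against 2.59 and 0.149 TPM in Elav-neg cells (log2 fold change 3.50 ± 0.95, adjusted p = 0.00797). This call was lost without Elav-neg replicate 2 (2.64) and without Elav-pos replicate 2 (2.55). At 18-22h AstA had 65.8 and 41.7 TPM in Elav-pos cells, against 4.38 and 18.7 TPM in Elav-neg cells, and the log2 fold change of 2.17 was not called (adjusted p = 0.0816).

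**Figure D3:**
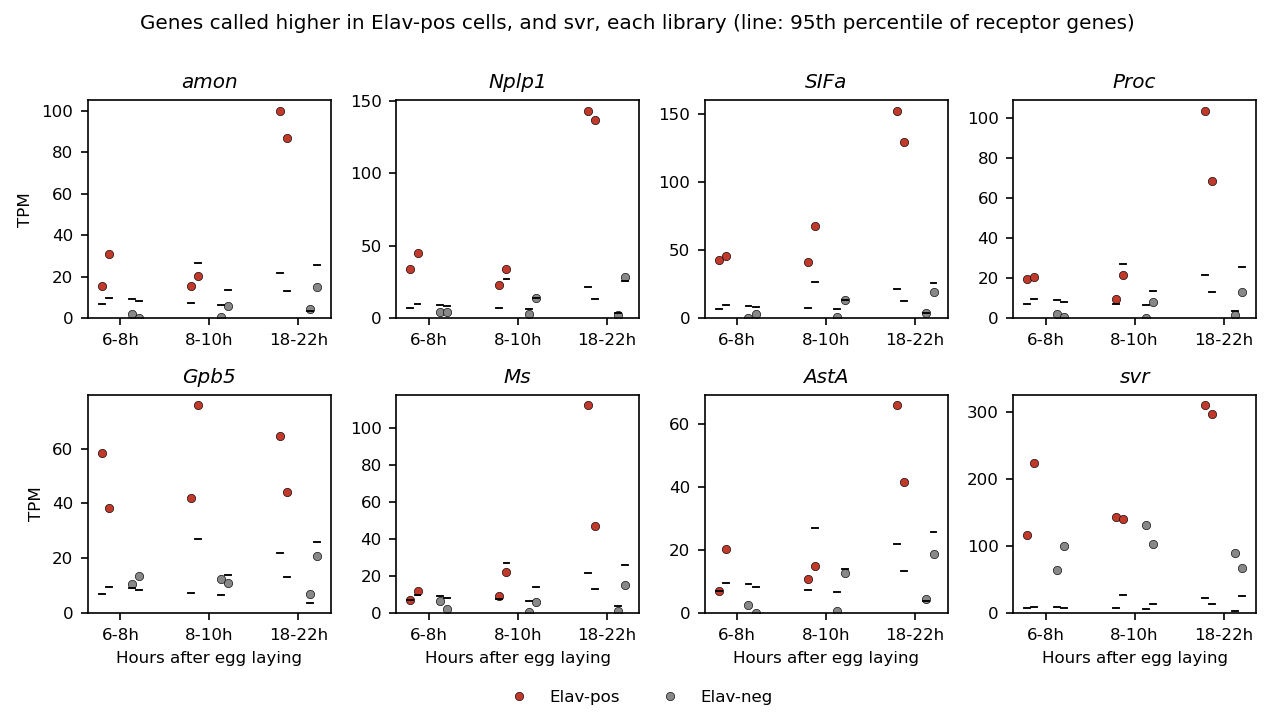
TPM in each library of Elav-pos (left of each pair) and Elav-neg cells at 6-8h, 8-10h and 18-22h for 7 genes called higher in Elav-pos cells at 1 or more times, and for svr. Short lines mark the 95th percentile of the chemosensory receptor genes in that library. At 18-22h both Elav-pos libraries of each gene lie above both Elav-neg libraries.

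The number of peptide genes above background in neurons differed between times. A gene counted when both libraries of a group exceeded the 95th percentile of receptor genes in the same library. By this description, 18 of 41 genes were above background in 6-8h Elav-pos cells, 11 in 8-10h Elav-pos cells and 26 in 18-22h Elav-pos cells. The same count was 8, 7 and 10 in Elav-neg cells, 10, 10 and 17 in Repo-pos cells, and 9, 8 and 22 in Repo-neg cells. In the Ind, Vnd and Pros groups it ran from 8 in 6-8h Pros-neg cells to 18 in 4-6h Vnd-pos cells. A count of this size was thus not particular to neurons at 6-8h and 8-10h. The 8-10h count was taken against a background of 7.39 and 26.9 TPM, and the receptor median of the library with the higher background was 15.1 TPM. Of all genes, 46.5%, 37.2% and 38.5% passed the same limit in Elav-pos cells at the 3 times. With either library alone, 21 or 26 genes passed at 6-8h, 17 or 20 at 8-10h and 28 or 30 at 18-22h. With a fixed limit of 10 TPM the counts were 13, 13 and 32, against 40 in 6-8h Vnd-pos cells and 26 in 18-22h Repo-neg cells. With the 90th percentile of receptor genes as the limit they were 24, 14 and 29, against 32 in 18-22h Repo-neg cells. By that limit the 18-22h count was not particular to neurons either.

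Some genes passed this background early and others late. At all 3 times 10 genes passed it: Nplp1, SIFa, Gpb5, Burs, amn, ITP, Nplp2, Ilp4, Phm and svr. Burs, a subunit of the tanning hormone bursicon, had 25.6 and 10.9 TPM at 6-8h, 7.72 and 30.0 TPM at 8-10h and 44.4 and 43.2 TPM at 18-22h. A further 7 genes passed at 6-8h and 18-22h: amon, Proc, Ms, Lk, Hug, AstC and Ilp6. At 18-22h alone 8 genes passed: AstA, the diuretic hormone genes Dh31 and Dh44, sNPF, Mip, Capa, CCHa2 and the eclosion hormone gene Eh. Of these, AstA fell just short of the 6-8h limit of 7.02 TPM in replicate 1, and it was called higher in 6-8h Elav-pos cells. Dh44, for example, had 27.8 and 17.5 TPM in 18-22h Elav-pos cells, against 0.813 and 15.6 TPM in Elav-neg cells. Pdf passed at 8-10h and 18-22h, and Ptth at 6-8h. At none of the times passed 14 genes: CCAP, Crz, NPF, Tk, Dsk, ETH, FMRFa, Pburs, AstCC, CCHa1, Ilp2, Ilp7, Nplp3 and Nplp4.

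Between consecutive times, Elav-pos cells were compared directly. The fly line changed between 8-10h and 18-22h in both replicates, and between 6-8h and 8-10h in replicate 1 only. From 8-10h to 18-22h, 3 of the 41 genes were called higher at the later time, against 5.33% of all genes tested, and 0 lower, against 4.25%. They were Nplp1 (log2 fold change 2.43 ± 0.52, adjusted p = 0.00233, edgeR), amon (2.47 ± 0.69, 0.0181) and Nplp2 (2.20 ± 0.59, 0.0148). The Nplp1 call held without each library. The amon call was lost without 8-10h replicate 1 (2.96), 8-10h replicate 2 (2.0) or 18-22h replicate 2 (2.21), and that of Nplp2 without any of the 4 libraries (1.84 to 2.47). In Elav-neg cells over the same interval, Nplp2 (4.52 ± 0.65), Ilp6 (2.09 ± 0.46) and Ilp4 (1.53 ± 0.48) were called higher, against 6.20% of all genes, and 0 genes lower, against 4.8%. The Ilp4 value turned to -0.51 without 18-22h Elav-neg replicate 1, and that of Ilp6 was 0.30 without it. Between 6-8h and 8-10h, edgeR called 0 of the 41 genes in Elav-pos cells (1 at an unadjusted p below 0.05, 0 by DESeq2), against 0.0117% of all genes in each direction. In Elav-neg cells it likewise called 0 (1 at an unadjusted p below 0.05, 0 by DESeq2), against 0.17% of all genes higher and 0.976% lower. The enrichment in Elav-pos over Elav-neg cells was not called different between consecutive times for any of the 41 genes by edgeR (0 at an unadjusted p below 0.05 for 8-10h against 6-8h, and 5 for 18-22h against 8-10h). DESeq2 called 0 genes for 8-10h against 6-8h, and 1 higher and 3 lower for 18-22h against 8-10h. Of all genes, edgeR called 0.00584% in each direction over the first interval, and 0.386% higher and 0.129% lower over the second.

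Of the 41 genes, 28 were called in none of the 12 comparisons. In 18-22h Elav-pos cells their mean levels ranged from 5.94 to 303 TPM with a median of 24.5 TPM, against 5.57 to 91.9 TPM with a median of 12.8 TPM in Elav-neg cells. Their log2 fold changes there ran from -1.46 to 2.94, and 21 of the 28 were above 0. Both Elav-pos libraries lay above both Elav-neg libraries for 17 of the 41 genes at 18-22h, against 25.8% of all genes tested. Among these genes, the Lk gene for leucokinin had 71.6 and 47.4 TPM in 18-22h Elav-pos cells, against 5.07 and 6.06 TPM in Elav-neg cells, and Hug, the hugin precursor, had 59.0 and 52.8 TPM against 0.982 and 17.8 TPM. These 2 genes were singled out after their values were seen. Their log2 fold changes of 2.94 and 2.83 had adjusted p-values of 0.139 and 0.162 (edgeR).

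**Figure D4:**
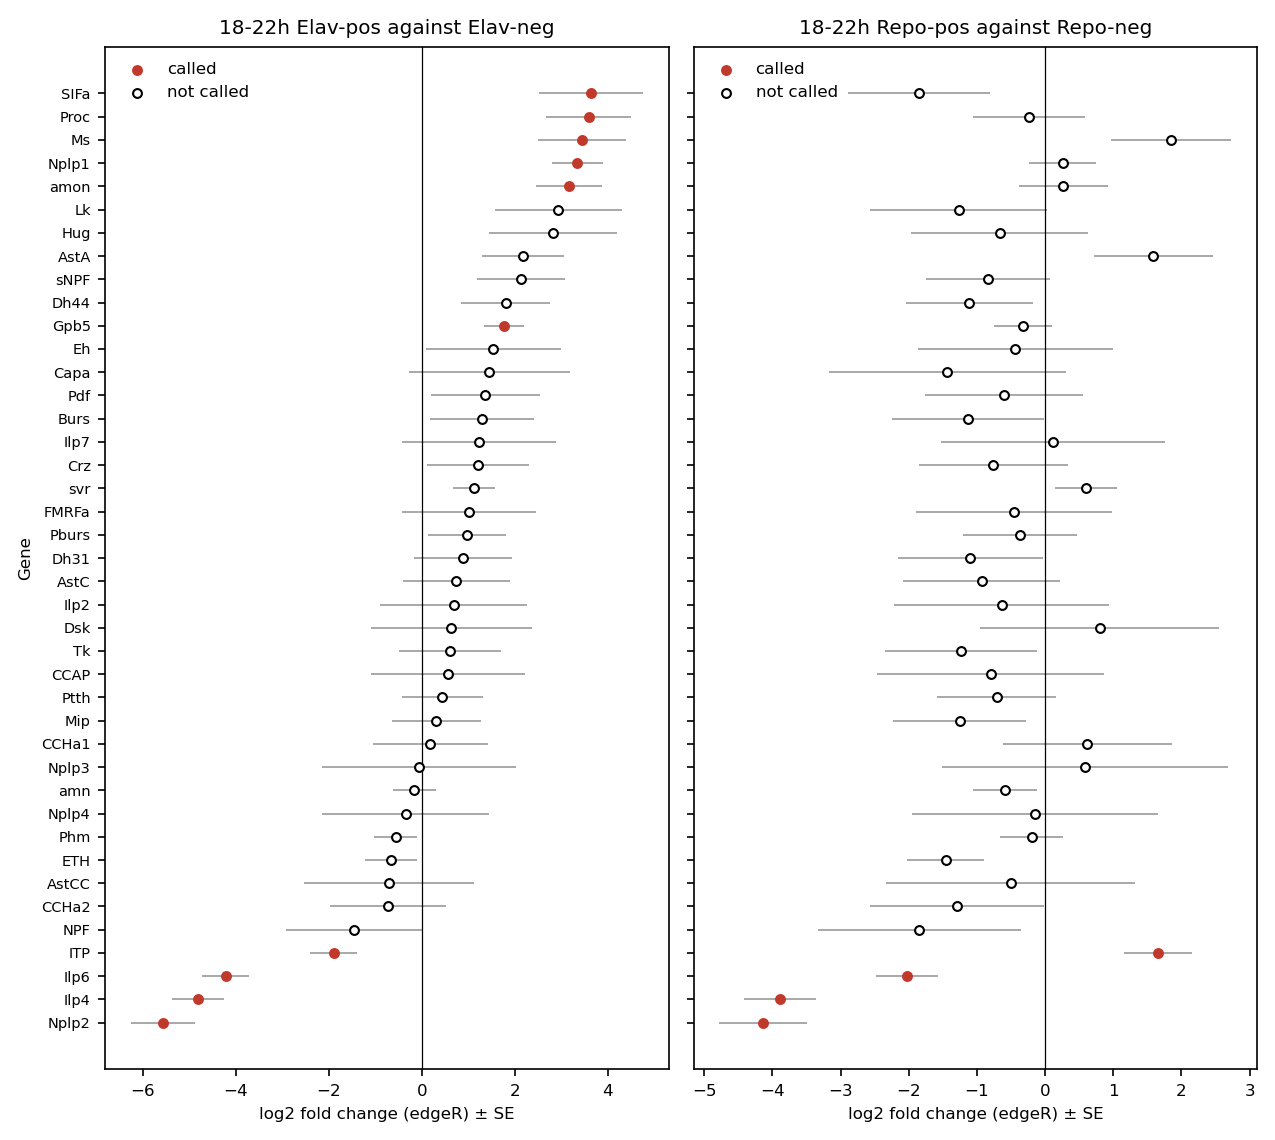
Log2 fold change ± SE (edgeR) of 41 genes in 18-22h Elav-pos against Elav-neg cells (left) and Repo-pos against Repo-neg cells (right), in the order of the Elav comparison. Filled points passed the test: 6 higher and 4 lower in Elav-pos cells, and 1 higher and 3 lower in Repo-pos cells, with ITP on opposite sides.

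A separate set of peptide genes was lower in neurons and glia than in the remaining cells at 18-22h. Nplp2 (FBgn0287423, 3L:13356376-13357223), named as a neuropeptide-like precursor, had 332 and 186 TPM in 18-22h Elav-pos cells, against 10889 and 2978 TPM in Elav-neg cells. In 18-22h Repo-pos cells it had 269 and 227 TPM, against 7103 and 2386 TPM in Repo-neg cells. Both negative libraries were far above both positive libraries in each sort. At 6-8h Nplp2 had 31.8 and 26.0 TPM in Elav-pos cells, against 183 and 257 TPM in Elav-neg cells. At 8-10h it had 49.7 and 71.5 TPM in Elav-pos cells, against 495 and 461 TPM in Elav-neg cells. The log2 fold changes in Elav cells were -2.99 ± 0.61, -3.25 ± 0.62 and -5.57 ± 0.68 at the 3 times (adjusted p = 5.43e-04, 3.09e-04 and 4.41e-07, edgeR), and all 3 calls held without each library. In Repo cells they were -2.09 ± 0.59, -2.65 ± 0.60 and -4.14 ± 0.64 (adjusted p = 0.0122, 0.00815 and 6.50e-05), of which the last held without each library. The 6-8h Repo call was lost without Repo-neg replicate 2 (-1.66), Repo-pos replicate 1 (-1.78) or Repo-pos replicate 2 (-1.83), and the 8-10h Repo call without Repo-neg replicate 1 (-2.49) or Repo-pos replicate 2 (-2.67).

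Insulin-like peptides activate the insulin receptor and control growth. Of the 4 such genes in the set, Ilp4 and Ilp6 were also called lower, but in Repo cells Ilp6 was called at 18-22h only. Ilp4 (FBgn0044049, 3L:9803399-9804263, minus strand) had 24.3 and 13.4 TPM in 18-22h Elav-pos cells, against 403 and 186 TPM in Elav-neg cells. It had 16.1 and 12.3 TPM in 18-22h Repo-pos cells, against 308 and 160 TPM in Repo-neg cells. The contrast was present at 6-8h, with 50.1 and 37.6 TPM in Elav-pos cells, against 324 and 209 TPM in Elav-neg cells. Ilp4 was called lower in all 3 Elav and all 3 Repo comparisons, with log2 fold changes of -2.66 to -4.81 in Elav and -3.15 to -3.89 in Repo cells, and all 6 calls held without each library. Ilp6 (FBgn0044047, X:2331493-2334658), known from the larval fat body, had 24.03 and 14.4 TPM in 18-22h Elav-pos cells, against 289 and 162 TPM in Elav-neg cells. Its log2 fold change was -4.22 ± 0.51 (adjusted p = 3.03e-07, edgeR), and the call held without each library. At 8-10h Ilp6 had 16.2 and 25.3 TPM in Elav-pos cells, against 72.7 and 69.7 TPM in Elav-neg cells (-2.39 ± 0.47, adjusted p = 4.45e-04). At 6-8h the log2 fold change of -1.3 ± 0.45 was called (adjusted p = 0.0441) but was lost without any of the 4 libraries (-0.89 to -1.73). In 18-22h Repo-pos cells Ilp6 had 33.1 and 35.4 TPM, against 203 and 135 TPM in Repo-neg cells (-2.03 ± 0.46, adjusted p = 0.00527), a call lost without Repo-neg replicate 1 (-1.51) or either Repo-pos library (-1.91 and -2.04). Ilp2 and Ilp7 were not called in any of the 12 comparisons.

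Summed markers of fat body, hemocytes, muscle, trachea and midgut were also lower in 18-22h Elav-pos and Repo-pos cells than in the negative cells. In 18-22h Elav-pos cells the 4 fat body markers summed to 128 and 191 TPM, against 1382 and 1205 TPM in Elav-neg cells, and the 7 hemocyte markers summed to 98.97 and 86.3 TPM, against 1949 and 865 TPM in Elav-neg cells. In Elav-pos cells 2 of 4 fat body, 5 of 7 hemocyte, 6 of 6 muscle and 5 of 6 tracheal markers were called lower at 18-22h, against 11.8% of all genes, and 1 tracheal marker was called higher, against 9.09%. In 18-22h Repo-pos cells 2 of 4 fat body, 3 of 7 hemocyte, 2 of 6 muscle and 1 of 6 tracheal markers were called lower, against 2.63% of all genes. Of 4 midgut markers, 1 was called lower in each population, and of 5 epidermal markers 1 was called higher in Elav-pos cells. The epidermal markers summed to 510 and 412 TPM in 18-22h Elav-pos cells, the opposite direction, against 261 and 261 TPM in Elav-neg cells. In Repo-pos cells they summed to 107 and 142 TPM, against 339 and 336 TPM in Repo-neg cells. The part of all these tissues in the levels of Nplp2, Ilp4 and Ilp6 was not tested.

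**Figure D5:**
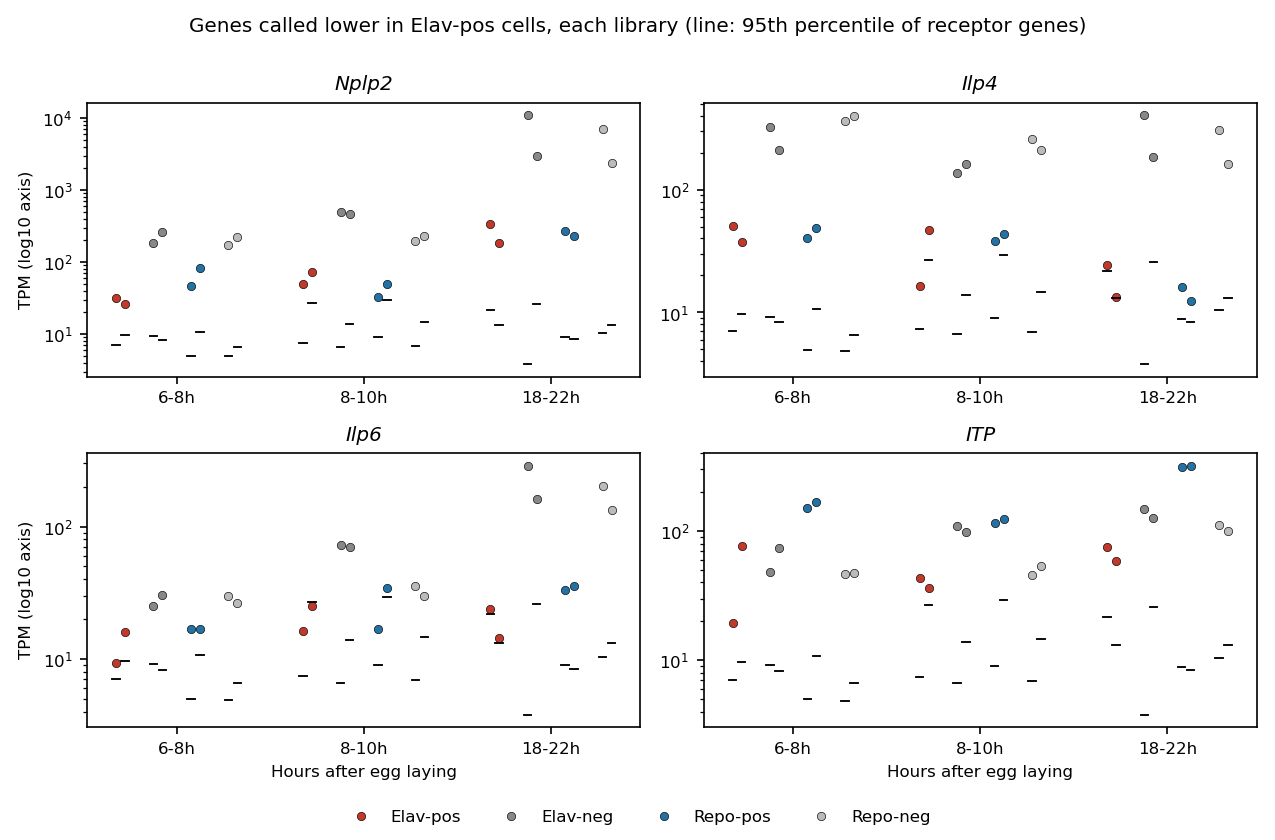
TPM (log10 axis) in each library for Nplp2, Ilp4, Ilp6 and ITP in Elav-pos, Elav-neg, Repo-pos and Repo-neg cells at 6-8h, 8-10h and 18-22h, with short lines at the 95th percentile of receptor genes. Nplp2 reaches 10889 TPM in an 18-22h Elav-neg library, while ITP is highest in 18-22h Repo-pos cells at 312 and 320 TPM.

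ITP was higher in glia than in the remaining cells. The gene (FBgn0035023, 2R:24537421-24558961) encodes ion transport peptide, an antidiuretic hormone, and its longer splice forms. ITP had 152 and 167 TPM in 6-8h Repo-pos cells, against 46.2 and 47.3 TPM in Repo-neg cells. At 8-10h it had 114.9 and 123 TPM in Repo-pos cells, against 45.3 and 53.7 TPM in Repo-neg cells. At 18-22h it had 312 and 320 TPM in Repo-pos cells, against 112 and 99.5 TPM in Repo-neg cells. The Repo-pos libraries were the higher ones at each time. ITP was called at 6-8h (log2 fold change 1.47 ± 0.50, adjusted p = 0.0374, edgeR) and 18-22h (1.66 ± 0.50, adjusted p = 0.0436), whereas the value of 0.78 at 8-10h was not called. Both calls depended on the libraries in the fit: that at 18-22h was lost without any of the 4 libraries (1.46 to 1.89), and that at 6-8h without Repo-neg replicate 1 (1.47), Repo-neg replicate 2 (1.74) or Repo-pos replicate 1 (1.39). The 6-8h call was also lost on counts from length-scaled TPM (1.18).

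In neurons the direction was opposite at 8-10h and 18-22h. At 6-8h ITP was not called in Elav cells. Its transcripts with 357 coding bases then summed to 19.5 and 74.6 TPM in Elav-pos cells, against 48.3 and 73.9 TPM in Elav-neg cells. Those groups overlapped. ITP had 43.2 and 36.3 TPM in 8-10h Elav-pos cells, against 110 and 99.0 TPM in Elav-neg cells, and 75.0 and 58.2 TPM in 18-22h Elav-pos cells, against 148 and 125 TPM in Elav-neg cells. The log2 fold changes were -1.69 ± 0.50 and -1.90 ± 0.50 (adjusted p = 0.0199 and 0.00589, edgeR). The 18-22h value was -0.59 without Elav-neg replicate 1, and the call was also lost without either Elav-pos library (-1.82 and -2.13). The 8-10h call was lost without Elav-neg replicate 1 (-1.09) or Elav-pos replicate 2 (-1.19). The 4 ITP transcripts with a coding sequence of 357 bases held 90.3% to 100% of ITP TPM in all Elav and Repo libraries. The transcript with a coding sequence of 324 bases, ITP-RE, had 6.58 and 5.63 TPM in 18-22h Elav-pos cells, against 0.306 and 0 TPM in Elav-neg cells, and 1.65 and 7.01 TPM in 18-22h Repo-pos cells, against 0 and 0.745 TPM in Repo-neg cells (not tested).

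Of the 41 genes, 4 were called higher in 6-8h Repo-pos than in Repo-neg cells (7.36% of all genes) and 3 lower (10.4%). Beside ITP the 4 were FMRFa, Ms and amon. The background of the 6-8h Repo-pos libraries was 4.99 and 10.7 TPM: both libraries lay below it for amon and FMRFa, and replicate 1 lay below it for Ms. Ms had 4.18 and 19.4 TPM in 6-8h Repo-pos cells, against 0.171 and 0.475 TPM in Repo-neg cells (log2 fold change 4.35 ± 1.02, adjusted p = 0.00269, edgeR), a call lost without Repo-neg replicate 1 (3.74). For amon the levels were 3.23 and 8.34 TPM in Repo-pos cells, against 0.608 and 1.14 TPM in Repo-neg cells (2.14 ± 0.70, adjusted p = 0.0300), a call lost without Repo-neg replicate 1 (1.74) or Repo-pos replicate 2 (2.0). FMRFa (FBgn0000715, 2R:9906294-9910457), the FMRFamide precursor, had 0.0983 and 6.52 TPM in Repo-pos cells, against 0 and 0.0914 TPM in Repo-neg cells. The Repo-pos libraries held 2 and 137 reads of FMRFa, against 0 and 3 reads in Repo-neg libraries, a ratio per read sequenced of 51 with a 95% exact interval of 17.1 to 251 that covers counting error only. The call (5.18 ± 1.84, adjusted p = 0.0469) rested on Repo-pos replicate 2, without which the log2 fold change was 0.75, and it was also lost without either Repo-neg library (4.27 and 9.32) and with the receptor level as a covariate (2.66). In Repo-pos replicate 2 the receptor median was 4.94 TPM, against 0.385 TPM in Repo-pos replicate 1, and the summed neuron markers in 6-8h Repo-pos cells were 649 and 512 TPM, against 254 and 309 TPM in Repo-neg cells. The part of these in the result was not tested.

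At 8-10h, 0 of the 41 genes were called higher in Repo-pos cells (1.80% of all genes, 2 at an unadjusted p below 0.05, 0 by DESeq2) and 2 lower (2.08% of all genes). At 18-22h, 1 was called higher (3.22% of all genes) and 3 lower (2.63% of all genes). Ms and AstA reached sizeable levels in 18-22h Repo-pos cells without a call. Ms had 48 and 38.1 TPM in Repo-pos cells, against 14.6 and 12.01 TPM in Repo-neg cells (log2 fold change 1.85, adjusted p = 0.308), and AstA had 61.1 and 27.9 TPM, against 20.4 and 14.9 TPM (1.59, adjusted p = 0.420). Both Repo-pos libraries were above both Repo-neg libraries in each gene. The summed neuron markers were 1222 and 1266 TPM in Repo-pos cells, against 2256 and 1684 TPM in Repo-neg cells. The part of neurons in the Ms and AstA levels was not tested. SIFa had 13.8 and 10.6 TPM in 18-22h Repo-pos cells, against 45.9 and 56.2 TPM in Repo-neg cells. These groups did not overlap, and the log2 fold change of -1.85 was not called (adjusted p = 0.444, edgeR).

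Neurons and glia were then set against each other. In 6-8h Elav-pos against Repo-pos cells, 4 genes were called higher (7.80% of all genes) and 1 lower (3.91%). The higher ones were SIFa (log2 fold change 3.81 ± 1.14), amon (2.16 ± 0.68), Nplp1 (2.05 ± 0.52) and Gpb5 (1.64 ± 0.43), and ITP was lower (-1.86 ± 0.50). Each of these 5 calls was lost without at least 2 of the 4 libraries. At 8-10h, Gpb5 was called higher (1.67 ± 0.43, 4.51% of all genes) and 0 genes lower (2.37% of all genes, 1 at an unadjusted p below 0.05, 1 by DESeq2). The Gpb5 call was lost without Elav-pos replicate 1 (1.5) or Repo-pos replicate 2 (1.40). At 18-22h, the time at which both populations came from 1 line, ITP was called lower in Elav-pos cells (-2.81 ± 0.52, adjusted p = 2.91e-04, edgeR), a call that held without each library. Ilp6 was called lower as well (-1.40 ± 0.45, adjusted p = 0.0380), a call lost without any of the 4 libraries (-1.34 to -1.54), against 6.20% of all genes. At 18-22h 0 genes were called higher by edgeR (6.06% of all genes, 7 at an unadjusted p below 0.05), while DESeq2 called 3. Between Elav-neg and Repo-neg cells, 0 of the 41 genes were called at the 3 times, with 3, 4 and 4 genes at an unadjusted p below 0.05 and 0 by DESeq2. Of all genes, 0.00584%, 0.38% and 0.0468% were called higher in Elav-neg cells and 0%, 0.427% and 2.12% lower. The enrichments of both populations were also set against each other. The enrichment in Elav cells was called greater than that in Repo cells for 1, 0 and 5 genes at the 3 times, against 4.97%, 2.22% and 6.29% of all genes, and smaller for 0, 1 and 2 genes, against 2.27%, 2.15% and 6.01%. By DESeq2 the counts were 2, 1 and 5 greater and 3, 1 and 2 smaller.

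The sorted columns and neuroblasts gave few calls. In 4-6h Pros-pos cells 1 gene was called higher (3.60% of all genes) and 2 lower (2.18%). The higher one was ETH (FBgn0028738, 2R:24794670-24795482), the ecdysis-triggering hormone precursor known from the tracheal Inka cells. It had 35.2 and 26.0 TPM in 4-6h Pros-pos cells, against 8.34 and 2.39 TPM in Pros-neg cells (log2 fold change 2.87 ± 0.60, adjusted p = 0.00312, edgeR). The groups did not overlap, and the call was lost without Pros-neg replicate 2 (2.26). In 6-8h Repo-pos cells ETH had 6.75 and 7.52 TPM, against 16.9 and 16.4 TPM in Repo-neg cells (-1.86 ± 0.58, adjusted p = 0.0221), a call lost without any of the 4 libraries (-1.31 to -1.87) and with median-of-ratios size factors (-1.5).

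In 6-8h Pros-pos cells, Nplp1 was called higher (2.27% of all genes) and Ilp6 lower (1.3% of all genes). Nplp1 had 23.2 and 23.3 TPM in 6-8h Pros-pos cells, against 5.89 and 6.40 TPM in Pros-neg cells (2.13 ± 0.52, adjusted p = 0.0139, edgeR). This call was lost without Pros-pos replicate 1 (1.98) or either Pros-neg library (1.93 and 2.37), and that of Ilp6 (-1.59 ± 0.46) without any of the 4 (-1.43 to -1.77) and with a replicate block (-1.60). In 4-6h Pros-pos cells Nplp2 had 51.8 and 72.3 TPM, against 725 and 560 TPM in Pros-neg cells (-2.97 ± 0.61), and Ilp6 had 11.54 and 6.10 TPM, against 48.8 and 47.8 TPM (-2.23 ± 0.47). The Nplp2 call was lost without Pros-pos replicate 1 (-2.64), and that of Ilp6 without Pros-pos replicate 2 (-1.78) or Pros-neg replicate 2 (-2.00).

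In Ind-pos cells, 2 genes were called lower at 4-6h (3.33% of all genes) and 3 at 6-8h (1.65% of all genes), and 0 were called higher at either time (1.16% and 0.684% of all genes, 1 and 2 genes at an unadjusted p below 0.05, 0 and 1 by DESeq2). Ilp4 had 65.9 and 43.0 TPM in 4-6h Ind-pos cells, against 331 and 337 TPM in Ind-neg cells (-2.77 ± 0.50, adjusted p = 6.65e-04, edgeR), and 52.8 and 60.5 TPM in 6-8h Ind-pos cells, against 313 and 410 TPM in Ind-neg cells (-2.57 ± 0.50, adjusted p = 0.00221). Nplp2 was lower at both times (-2.40 ± 0.59 and -3.07 ± 0.62) and Ilp6 at 6-8h (-1.84 ± 0.46). Each of these 5 calls was lost without at least 1 of the 4 libraries, Ilp4 at 4-6h without Ind-pos replicate 2 alone (-2.59). In Vnd-pos cells edgeR called 0 of the 41 genes at 4-6h and 6-8h, against 0.555% and 0.0877% of all genes higher and 0.129% and 0.0526% lower. There 1 and 2 genes had an unadjusted p below 0.05, and DESeq2 called 1 and 2, in each case lower. Ilp4 nonetheless had 120 and 130 TPM in 6-8h Vnd-pos cells, against 347 and 356 TPM in Vnd-neg cells.

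Other genes of the peptide pathway were counted in 3 lists. Of all genes tested, 9.34%, 5.71% and 9.09% were called higher in Elav-pos than in Elav-neg cells at 6-8h, 8-10h and 18-22h, and 7.67%, 7.80% and 11.8% lower. In Repo-pos cells 7.36%, 1.80% and 3.22% of all genes were called higher, and 10.4%, 2.08% and 2.63% lower. Of 15 further processing and dense core vesicle genes, 11, 7 and 10 were called higher in Elav-pos than in Elav-neg cells at 6-8h, 8-10h and 18-22h, and 0, 1 and 1 lower. Rab3, a GTPase of regulated secretion, had 417 and 367 TPM in 18-22h Elav-pos cells, against 8.60 and 22.5 TPM in Elav-neg cells (log2 fold change 4.57 ± 0.46, adjusted p = 2.19e-08, edgeR). IA-2, a transmembrane protein of dense core vesicles, had 367 and 264 TPM, against 15.1 and 20.5 TPM (3.84 ± 0.52). The kinesin unc-104, which carries synaptic and dense core vesicles, had 315 and 269 TPM, against 17.1 and 26.6 TPM (3.38 ± 0.41). The member called lower at 18-22h was nemy, a cytochrome b561 protein linked to peptide amidation, with 101 and 90.2 TPM in Elav-pos cells, against 1566 and 560 TPM in Elav-neg cells (-4.18 ± 0.58). In 6-8h Repo-pos cells nemy had 475 and 449 TPM, against 23.4 and 21.4 TPM in Repo-neg cells (3.71 ± 0.57). It was called higher in 8-10h Repo-pos cells as well (2.21 ± 0.53). At 18-22h nemy had 525 and 525 TPM in Repo-pos cells, against 1160 and 527 TPM in Repo-neg cells. The log2 fold change of -0.47 there was not called. Of the 15 genes, 6, 1 and 0 were called higher in Repo-pos cells at the 3 times and 0 lower.

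Of 39 neuropeptide receptor genes, 8, 0 and 7 were called higher in Elav-pos cells at 6-8h, 8-10h and 18-22h and 0 lower, against 9.34%, 5.71% and 9.09% of all genes higher and 7.67%, 7.80% and 11.8% lower. In Repo-pos cells the counts were 7, 0 and 1, against 7.36%, 1.80% and 3.22% of all genes, again with 0 lower, against 10.4%, 2.08% and 2.63%. Their median log2 fold changes in Elav cells were 1.01, 0.67 and 1.04. SIFaR, the SIFamide receptor, had 45.1 and 21.1 TPM in 18-22h Elav-pos cells, against 0.495 and 8.71 TPM in Elav-neg cells (3.09 ± 0.99, adjusted p = 0.0226, edgeR). The myosuppressin receptor MsR1 had 51.3 and 31.8 TPM, against 0.489 and 11.4 TPM (3.12 ± 0.99), the sex peptide and Mip receptor SPR 54.2 and 41.9 TPM, against 1.91 and 11.51 TPM (2.96 ± 0.68), and the allatostatin C receptor AstC-R2 57.3 and 34.5 TPM, against 3.74 and 16.7 TPM (2.13 ± 0.63). Both Elav-pos libraries were higher in all 4.

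Of 9 regulators of peptidergic identity, 5, 3 and 6 were called higher in Elav-pos cells at the 3 times and 1 lower at each, against 9.34%, 5.71% and 9.09% of all genes higher and 7.67%, 7.80% and 11.8% lower. The transcription factor gene kn had 312 and 316 TPM in 18-22h Elav-pos cells, against 10.5 and 21.1 TPM in Elav-neg cells (4.05 ± 0.44, adjusted p = 5.81e-08, edgeR), and it was near that level at 6-8h, with 312 and 379 TPM in Elav-pos cells, against 21.8 and 26.1 TPM in Elav-neg cells. Also called were dac (3.86 ± 0.29), wit, the type II BMP receptor needed for FMRFa expression (2.31 ± 0.36), and sqz (1.67 ± 0.31). In Repo-pos cells 2, 0 and 0 of the 9 were called higher, against 7.36%, 1.80% and 3.22% of all genes, and 3, 2 and 0 lower, against 10.4%, 2.08% and 2.63%.

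Reads were counted by strand, so genes on opposite strands, such as Ilp4 within CG32052 and Ilp6 overlapping Raf, were counted apart. Ilp2 overlaps CG32052 and Dh31 overlaps Bace on the same strand, so their values are less certain.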

How the data were processed

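Per the labels and the study's methods, the authors estimated transcript abundance with Salmon 0.8.1 against FlyBase transcripts of the dm6 genome, on a reference prepared with RSEM 1.3.0, and deposited estimated counts and TPM for each transcript in 48 libraries. Their tables of DESeq2 comparisons hold fold changes and p-values and were not used. Here, estimated counts and TPM were summed over the transcripts of each gene as named in Ensembl BDGP6.54, and 0.241 to 0.502% of reads lay on unmatched transcripts. Rounded estimated counts were fitted with edgeR 4.0.16 (R 4.3.3, TMM normalization, quasi-likelihood test, 24 group means over 48 libraries) after its filter on low counts, which 17109 genes and all 41 measured genes of the set passed. Benjamini-Hochberg adjustment ran over all 17109 genes, and calls were made at an adjusted p under 0.05 with a log2 fold change beyond 1 in either direction. Standard errors are the fold change divided by the square root of F. The procedure was also run on simulated counts with known fold changes. Their spread was lower than the common dispersion of 0.362 fitted here, so that run does not measure accuracy in these data.

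Values are given for each gene called in at least 1 of the 12 comparisons with a mean of at least 10 TPM in a group, and for up to 4 genes of each other list. The genes and lists were chosen with earlier results of these data known. Positions are those of BDGP6.54; 39 of 40 genes had the same position in the authors' dm6 tables. Replicate numbers pair the 6-8h Elav sorts, whose fly lines follow the number (correlation of deviations 0.523). Alternatives were DESeq2 1.42.0, median-of-ratios size factors, length-scaled TPM counts, no filter, the receptor level as a covariate, a replicate block, the compared libraries alone, and each library left out. Salmon's estimates have a sampling error that grows at low counts, and depth was 18120862 to 113452420 reads.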

Additional observations from a re-analysis of the deposited data

Results flagged for a closer look

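The enrichment in Elav-pos over Elav-neg cells was compared with that in Repo-pos over Repo-neg cells by an interaction term in the edgeR fit, a test chosen after both enrichments had been seen. At 18-22h it differed for 7 of 41 genes. SIFa differed by 5.49 ± 1.52 on the log2 scale, Proc by 3.82 ± 1.20, Nplp1 by 3.09 ± 0.71, amon by 2.89 ± 0.94 and Gpb5 by 2.10 ± 0.60, each with the greater enrichment in Elav-pos cells, against 6.29% of all genes. ITP differed by -3.56 ± 0.71 and Ilp6 by -2.20 ± 0.64, against 6.01% of all genes. The calls of ITP and Nplp1 held without each library. Of the 8 libraries compared, leaving out any 1 of 7 ended the call of amon, any 1 of 6 that of Proc and that of Gpb5, and any 1 of 3 that of SIFa and that of Ilp6. The value of Ilp6 was -0.57 without Elav-neg replicate 1. The calls of amon (2.83) and Ilp6 (-1.83) were also lost with the replicate block. At 6-8h SIFa differed by 5.42 ± 1.55 (4.97% of all genes higher), and at 8-10h ITP by -2.46 ± 0.70 (2.15% of all genes lower). Leaving out any 1 of 5 libraries ended the 6-8h call, and any 1 of 6 the 8-10h call. At 6-8h and 8-10h the fly lines of the Elav and Repo sorts differed in part or in full, and line and population cannot be told apart there.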

How the results depend on the processing

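Of 76 single-gene results, 76 kept their direction and their side of the threshold without the filter on low counts, 75 by DESeq2, 73 with median-of-ratios size factors or with the receptor covariate, and 72 on length-scaled counts. Of 75, 36 lost their call on the compared libraries alone, where few degrees of freedom remain. Of 340 values with a library left out, 137 kept their direction but lost their call. Median-of-ratios factors moved the median of all genes by up to 0.37 (6-8h Repo). The sign turned for Ilp4 in Elav-neg cells at 18-22h against 8-10h (-0.51 without 18-22h Elav-neg replicate 1; range with 1 library left out -0.51 to 2.32), for svr at 6-8h (-0.11 without Elav-pos replicate 2, range -0.11 to 0.85) and 8-10h (0.26 without Elav-neg replicate 1, 0.17 without Elav-pos replicate 2, range -1.31 to 0.26), and for Phm at 18-22h (0.15 with the receptor covariate, 1.0 without Elav-neg replicate 1, range -1.28 to 1.0). The causes were not tested.

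Counts of genes called differed as follows. On the compared libraries alone, 4 genes were higher and 1 lower in 4-6h Vnd, 2 higher in 4-6h Pros, 1 higher in 6-8h Ind, 2 lower in 6-8h Vnd, 3 lower in 6-8h Pros, 2 higher in 6-8h Elav, 0 higher in 8-10h Elav, 1 higher in 8-10h Repo, 0 higher and 0 lower in 18-22h Elav, and 3 higher and 6 lower in 18-22h Repo. In Elav-pos against Repo-pos cells that fit gave 2 higher and 0 lower at 6-8h, 0 higher at 8-10h and 13 higher at 18-22h, and in Elav-pos cells 0 higher at 18-22h against 8-10h. For the difference of enrichments it gave 0 higher at 6-8h, 0 lower at 8-10h, and 3 higher and 0 lower at 18-22h. DESeq2 gave 1 lower in 4-6h Vnd, 2 higher in 4-6h Pros, 1 higher in 6-8h Ind, 2 lower in 6-8h Vnd, 3 lower in 6-8h Pros, 9 higher in 6-8h Repo and 5 higher in 8-10h Elav. It gave 1 lower at 8-10h and 3 higher at 18-22h in Elav-pos against Repo-pos cells, 7 higher in Elav-pos cells at 18-22h against 8-10h, and 1 higher and 3 lower for the Elav enrichment over that interval. For the difference of enrichments it gave 2 higher and 3 lower at 6-8h and 1 higher at 8-10h. With the receptor covariate, 2 were higher in 4-6h Pros, 2 higher in 6-8h Ind, 1 lower in 6-8h Vnd, 3 lower in 6-8h Pros, 12, 8 and 10 higher in 6-8h, 8-10h and 18-22h Elav, and 1 and 2 higher in 8-10h and 18-22h Repo. That covariate gave 10 higher at 6-8h, 1 lower at 8-10h and 5 higher at 18-22h in Elav-pos against Repo-pos cells, 6 higher in Elav-pos cells at 18-22h against 8-10h, 1 higher for the Elav enrichment over that interval, and 5 higher and 1 lower, 1 higher, and 9 higher for the difference of enrichments at the 3 times. Median-of-ratios factors gave 1 lower in 6-8h Vnd, 2 lower in 6-8h Pros, 1 lower at 8-10h and 3 higher at 18-22h in Elav-pos against Repo-pos cells, and 1 lower for the difference of enrichments at 6-8h. Length-scaled counts gave 1 lower in 18-22h Elav-pos against Repo-pos cells.

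The replicate block gave 5 higher in 8-10h Elav. In Elav-pos against Repo-pos cells it gave 1 lower at 8-10h, and 1 higher and 1 lower at 18-22h. For the difference of enrichments it gave 1 lower at 6-8h and 1 lower at 18-22h. With the block, 6 single calls were lost, none of them in 6-8h Elav cells, the sorts that the numbers pair. Elsewhere the samples share only a number (correlations of -0.552 to 0.722).

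With 1 library left out in turn, the counts ranged as follows: 0 to 4 lower in 4-6h Ind, 0 to 1 higher and 1 to 2 lower in 4-6h Pros, 0 to 2 lower in 6-8h Ind, 0 to 1 higher and 0 to 0 lower in 6-8h Pros, 4 to 12 higher and 2 to 2 lower in 6-8h Elav, 0 to 5 higher and 1 to 3 lower in 6-8h Repo, 1 to 9 higher and 3 to 4 lower in 8-10h Elav, 1 to 2 lower in 8-10h Repo, 4 to 11 higher and 3 to 5 lower in 18-22h Elav, and 0 to 0 higher and 2 to 3 lower in 18-22h Repo. In Elav-pos against Repo-pos cells they were 0 to 6 higher and 0 to 1 lower at 6-8h, 0 to 2 higher and 0 to 1 lower at 8-10h, and 1 to 1 lower at 18-22h. They were 1 to 2 higher in Elav-pos cells at 18-22h against 8-10h, 0 to 2 lower for the Elav enrichment at 8-10h against 6-8h, and 0 to 1 higher and 0 to 3 lower at 18-22h against 8-10h. For the difference of enrichments they were 0 to 4 higher and 0 to 1 lower at 6-8h, 0 to 2 higher and 0 to 1 lower at 8-10h, and 1 to 7 higher and 1 to 4 lower at 18-22h. Genes above background in Elav-pos cells numbered 21 to 26, 17 to 20 and 28 to 30 at the 3 times.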
